A study of Mus musculus with 45 samples.

Results

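Untreated SOX2-FKBP cells were compared with untreated NANOG-FKBP cells by ATACseq, to describe how far their accessible chromatin differs before any factor is depleted. The comparison holds 4 samples, chosen by their labels as the 2 untreated (NT) libraries of each line, out of 45 samples in the series and 31 with counts in peaks. Both groups are mouse embryonic stem cells (mESC) labelled E14, taken at time 0 h, cultured without serum in N-2 and B-27 medium with LIF, the MEK inhibitor PD0325901 and the GSK3-β inhibitor CHIR99021, and given DMSO in place of dTAG-13. In SOX2-FKBP cells the genotype is a homozygous fusion of FKBP(F36V) to the C-terminus of SOX2, and in NANOG-FKBP cells the same kind of fusion to NANOG, each followed by HA tags, a P2A peptide and GFP or mCherry. The methods of the study name IB10 mESC for the SOX2 targeting and E14 mESC for the NANOG targeting, and each line was grown from picked homozygous clones. For SOX2 the methods also describe an independent clone, and it is not stated whether either untreated replicate is that clone. The tagged gene and the clone change together between the groups, and any difference between the parental cells would change with them, so that their parts cannot be told apart. OCT4-FKBP cells, given below for reference, belong to neither group. By the methods they were made in another mESC line and provided by another laboratory, so that their parental cells differ as well.

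SOX2 is an HMG-box transcription factor that binds DNA with OCT4 at many enhancers of mESC and can open nucleosomal DNA. NANOG is a homeodomain factor of the same network, and ESRRB and KLF factors help to hold cells in the naive state that the MEK and GSK3 inhibitors favour. Degron lines are usually read against their own untreated cells, and the untreated cells of different lines are the background of such readings. ATACseq reads accessibility from where the Tn5 transposase inserts, as fragments counted per peak.

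The deposited table holds raw fragment counts for 184964 peaks. Total counts were 10531404 and 6479369 in SOX2-FKBP NT replicates 1 and 2, and 7102925 and 6035633 in NANOG-FKBP NT replicates 1 and 2. The mitochondrial genome took 2.43% to 2.74% of counts in the SOX2-FKBP NT libraries and 3.65% to 3.83% in the NANOG-FKBP NT libraries, and the part of this difference in the results was not tested. NANOG-FKBP NT replicate 2 stood apart: chromosome 8 took 7.39% of its counts outside the mitochondrial genome, against 5.73% in NANOG-FKBP NT replicate 1 and 5.30% to 5.35% in SOX2-FKBP NT. The median difference between replicates of a line, on the log2 scale, was 0.26 in SOX2-FKBP NT and 0.39 in NANOG-FKBP NT. The promoter peaks of 6 mESC marker genes (Pou5f1, Sox2, Nanog, Esrrb, Zfp42 and Klf4) were open in both lines, with summed normalized counts of 1758 and 1899 in SOX2-FKBP NT and 2150 and 2022 in NANOG-FKBP NT, and none was called different. Marker promoters of other cell types were open in both lines too and summed higher in NANOG-FKBP NT, most of all in replicate 2. The 5 primitive endoderm markers summed to 567 and 575 against 688 and 1028, the 4 trophectoderm markers to 403 and 437 against 468 and 685, and 4 of 5 fibroblast markers with a promoter peak to 197 and 203 against 264 and 371. Among these 13 non-mESC promoters 1 was called, that of Twist2, where 4.3% of all promoter peaks were called higher in NANOG-FKBP NT. No promoter peak was found for Prrx1. The median level of all promoter peaks was raised too, at 0.10 in replicate 1 and 0.26 in replicate 2 on the log2 scale. The median log2 fold change was 0.615 over the 5 primitive endoderm markers and 0.415 over a list of 14 that holds them. For trophectoderm it was 0.435 over the 4 markers and 0.345 over a list of 11.

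Peaks were tested with edgeR's quasi-likelihood test in a model of 27 libraries (SOX2-FKBP, OCT4-FKBP and NANOG-FKBP at NT, 2, 6 and 24 h), so that all libraries share one estimate of the spread, and a peak was called at a Benjamini-Hochberg adjusted p under 0.05 over 166430 peaks. Values are normalized counts, scaled to the mean library size of the 4 NT libraries, and fold changes are NANOG-FKBP NT over SOX2-FKBP NT. Of all peaks tested, 5680 (3.41%) were higher in NANOG-FKBP NT and 6005 (3.61%) were higher in SOX2-FKBP NT, together 7.02%. The called peaks differed by a median log2 fold change of 1.46 in the first group and -1.56 in the second, and 84.7% and 93.1% of them differed by at least 2-fold. Most were weak, since only 1124 and 469 reached a mean of 100 normalized counts in the higher line. Over all peaks the median log2 fold change was 0.01, with quartiles of -0.45 and 0.39. The labels do not say whether replicates are separate cultures, so that p-values measure only the spread between these libraries. Fewer peaks were called in both directions whichever of the 4 NT libraries was left out, so that the fall does not single out NANOG-FKBP NT replicate 2. Each such fit leaves a lone library in a line. Lost replication and the content of the omitted library therefore cannot be told apart.

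**Figure D1:**
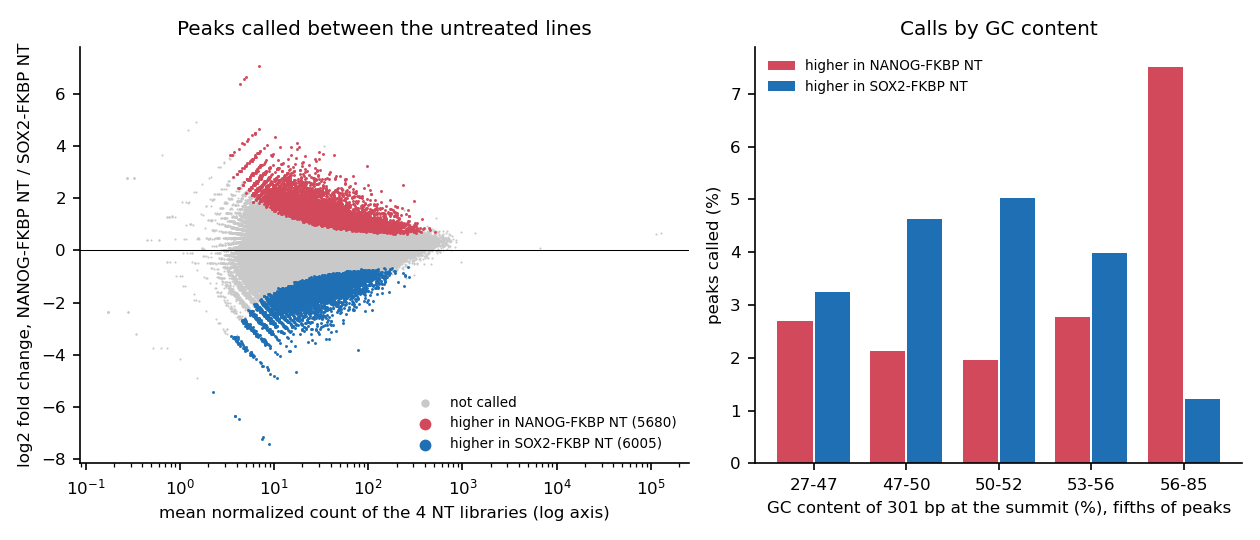
Left, log2 fold change of NANOG-FKBP NT over SOX2-FKBP NT for each of 166430 peaks against its mean normalized count in the 4 NT libraries (log axis), with the 5680 peaks called higher in NANOG-FKBP NT in red and the 6005 called higher in SOX2-FKBP NT in blue. Right, percentage of peaks called in each direction in quintiles of all peaks by GC content around the summit, where the highest quintile has 7.51% higher in NANOG-FKBP NT and 1.22% higher in SOX2-FKBP NT.

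Chromosome 8 was higher in the NANOG-FKBP line, most of all in replicate 2. The level of a chromosome was taken as the median over its peaks of the log2 difference to the mean of the SOX2-FKBP NT libraries. It was 0.11 in NANOG-FKBP NT replicate 1 and 0.47 in NANOG-FKBP NT replicate 2, against 0.00 in both SOX2-FKBP NT libraries. The other autosomes and the X chromosome lay between -0.07 and 0.04 in replicate 1, and between -0.08 and 0.16 in replicate 2, where the X chromosome was the highest. The Y chromosome, with 40 tested peaks, had -0.24 and 0.13. In 26 bins of 5 Mb along chromosome 8 the level of replicate 2 lay between 0.16 and 0.58, all above 0, and that of replicate 1 between -0.20 and 0.21. Treated libraries of the same line also differed by replicate, with 0.14 to 0.15 in replicate 1 of the 2, 6 and 24 h times, 0.26 to 0.33 in replicate 2 and 0.46 to 0.47 in replicate 3. It is not stated whether a replicate number marks the same culture or clone in untreated and treated libraries, and NT replicate 2 was at the level of treated replicate 3. Treated SOX2-FKBP libraries lay between 0.03 and 0.08. OCT4-FKBP NT libraries, of the reference line, stood at 0.59 and 0.56, above both NANOG-FKBP NT libraries. With 2 libraries against 2, an exact permutation test cannot go below a p of 0.33, and none is given.

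**Figure D2:**
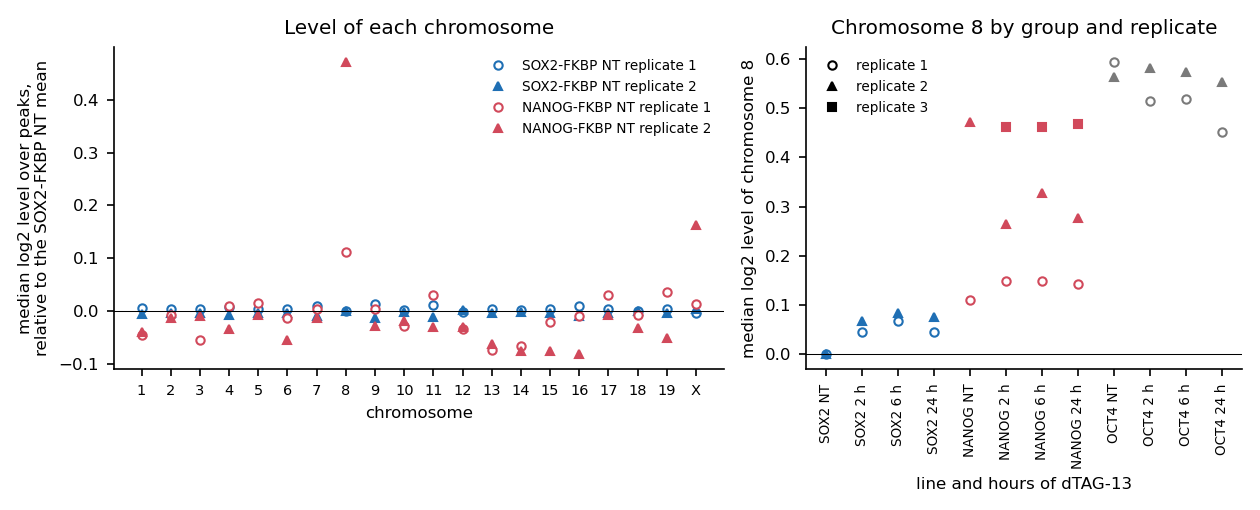
Left, median log2 level of each chromosome in the 4 NT libraries relative to the SOX2-FKBP NT mean, where chromosome 8 stands at 0.47 in NANOG-FKBP NT replicate 2. Right, the level of chromosome 8 in each library of the 3 lines by hours of dTAG-13, with symbols for the replicate number and grey symbols for OCT4-FKBP.

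On chromosome 8, 731 of 9813 peaks (7.45%) were called higher in NANOG-FKBP NT and 139 (1.42%) higher in SOX2-FKBP NT, and the median log2 fold change was 0.33. Of its peaks 69.0% had a positive fold change, against 49.2% of peaks elsewhere. Without NANOG-FKBP NT replicate 2 the median fell to 0.11, and without SOX2-FKBP NT replicate 1 it was 0.31. Without NANOG-FKBP NT replicate 1 it was 0.47. The remaining assembled chromosomes held 4946 (3.16%) peaks higher in NANOG-FKBP NT and 5864 (3.75%) higher in SOX2-FKBP NT, with a median of -0.01. Leaving out the Y chromosome, where none of 40 peaks was called, the share higher in NANOG-FKBP NT ran from 2.92% on chromosome 16 to 3.68% on chromosome 17. On the same chromosomes the share higher in SOX2-FKBP NT ran from 2.16% on the X chromosome to 5.02% on chromosome 14.

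Some chromosome 8 peaks differed far more than the chromosome. The peak in an intron of Enpp6, a choline phosphodiesterase (chr8:47058167-47059566), had 16.0 and 16.9 normalized counts in SOX2-FKBP NT and 106 and 133 in NANOG-FKBP NT. Its log2 fold change was 2.86 (SE 0.34, edgeR adjusted p = 3.71e-06), or 2.54 above the chromosome median. A peak in an intron of the lysosomal membrane gene Tmem192 had 21.5 and 30.3 against 111 and 126 (log2 fold change 2.22, SE 0.36, edgeR adjusted p = 0.000188). Peaks with large differences were named only where the libraries of the lines do not overlap. Both peaks were therefore higher in each NANOG-FKBP NT library by choice. In the other direction, 5 strong peaks were called. An intronic peak of Cdyl2, a chromodomain gene, had 79.8 and 129 in SOX2-FKBP NT against 43.2 and 49.7 (log2 fold change -1.15, SE 0.29, edgeR adjusted p = 0.0115). A peak 19.7 kb from the start of Hpf1, a PARP cofactor, had 112 and 114 against 52.0 and 60.2 (-1.01, SE 0.28, edgeR adjusted p = 0.0215). Around its summit 87.4% of the sequence was repeat-masked, and 55.15% at the Tmem192 peak, so that the placement of fragments is less certain there. An intronic peak of the mechanosensitive channel gene Piezo1 had 167 and 155 against 111 and 56.2 (-0.93, SE 0.26, edgeR adjusted p = 0.0202). These 3 lost their call when a single library was left out, whereas the Enpp6 and Tmem192 peaks kept it in each such fit.

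Outside chromosome 8 the largest rise was at the promoter of Plagl1, a zinc finger gene that is imprinted, so that its promoter is normally methylated on the maternal chromosome. The peak (chr10:13090143-13091508, mm10) had 14.6 and 23.6 normalized counts in SOX2-FKBP NT and 147 and 205 in NANOG-FKBP NT. The libraries of the lines did not overlap, which the naming rule requires, and the log2 fold change was 3.25 (SE 0.31, edgeR adjusted p = 6.57e-08). Treated cells showed the same levels, with 15.0 to 32.1 over the 6 SOX2-FKBP libraries at 2, 6 and 24 h and 144 to 200.3 over the 9 NANOG-FKBP libraries. OCT4-FKBP NT had 130 and 106. The call held under each of the 18 alternative settings. The summit lies in an exon, and the window of 150 bp on each side of it had a GC content of 70.8%. A stretch of the same peak outside exons, beside the summit, is printed with every CpG in capitals (chr10:13090490-13090690, mm10, plus strand, 13 CpG, GC content 63.7%).
Plagl1 promoter: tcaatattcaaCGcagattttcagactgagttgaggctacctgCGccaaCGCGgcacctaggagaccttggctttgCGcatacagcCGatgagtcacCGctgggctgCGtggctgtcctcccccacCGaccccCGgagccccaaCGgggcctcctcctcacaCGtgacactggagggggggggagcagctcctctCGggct

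The next largest rises lay away from promoters or at promoters of tissue genes. An intergenic peak 491 kb from Cntn6, a neural contactin gene (chr6:104983894-104984669), had 13.9 and 16.9 in SOX2-FKBP NT and 97.4 and 105 in NANOG-FKBP NT (log2 fold change 2.73, SE 0.39, edgeR adjusted p = 4.57e-05). A peak in an intron of Mto1, which modifies mitochondrial tRNA (chr9:78473147-78474869), had 77.0 and 60.7 against 344 and 453 (log2 fold change 2.52, SE 0.50, edgeR adjusted p = 0.00164). The Mobp promoter, of a myelin protein gene (chr9:120149221-120150223), had 25.7 and 35.9 against 189 and 150 (log2 fold change 2.49, SE 0.36, edgeR adjusted p = 5.24e-05). In all of these, both NANOG-FKBP NT libraries stood above both SOX2-FKBP NT libraries, which the naming rule requires. A peak 9.67 kb from Jam3, a junctional adhesion gene, had 22.9 and 14.6 against 81.9 and 137 (2.48, SE 0.33, edgeR adjusted p = 1.78e-05). A peak in an intron of the sorting nexin gene Snx24 had 20.8 and 17.97 against 120 and 91.6 (2.43, SE 0.31, edgeR adjusted p = 1.50e-05). OCT4-FKBP NT cells had 58.7 to 787 normalized counts at these 5 peaks, above both SOX2-FKBP NT libraries at each.

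The largest fall was at an intergenic peak 33.7 kb from Chchd3, which codes for a mitochondrial cristae protein (chr6:32769485-32770928). It had 164 and 125 normalized counts in SOX2-FKBP NT and 14.4 and 5.23 in NANOG-FKBP NT, a log2 fold change of -3.83 (SE 0.45, edgeR adjusted p = 3.71e-06). Over the treated libraries it had 137 to 266 in SOX2-FKBP and 10.7 to 40.4 in NANOG-FKBP, so that the lines did not overlap at any time. Its summit region (chr6:32770109-32770407, mm10, plus strand) holds the ESRRB string once, on the opposite strand, which is printed in capitals.
Chchd3 peak: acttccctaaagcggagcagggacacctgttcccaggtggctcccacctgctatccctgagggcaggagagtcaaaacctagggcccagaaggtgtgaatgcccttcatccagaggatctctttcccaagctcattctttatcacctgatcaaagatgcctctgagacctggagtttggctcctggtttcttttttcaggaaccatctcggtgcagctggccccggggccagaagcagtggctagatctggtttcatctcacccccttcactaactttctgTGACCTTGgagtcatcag

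The other large falls were also outside promoters. An intronic peak of Fancc, a DNA repair gene (chr13:63321397-63322409), had 164 and 143 in SOX2-FKBP NT against 40.9 and 19.6 in NANOG-FKBP NT (log2 fold change -2.31, SE 0.36, edgeR adjusted p = 0.000135). An intronic peak of Rai1, a nuclear protein gene (chr11:60160456-60161941), had 190.1 and 176 against 45.4 and 28.8 (-2.29, SE 0.34, edgeR adjusted p = 5.97e-05). A peak 237 kb from the transcription factor gene Ets1 (chr9:32932923-32934656) had 119 and 112 against 33.2 and 13.1 (-2.29, SE 0.32, edgeR adjusted p = 3.07e-05). In each the NANOG-FKBP NT libraries differed from each other, with replicate 2 the lower. Both lay below SOX2-FKBP NT, which the naming rule requires. A peak 25.1 kb from the translation factor gene Eif5 had 122 and 114 against 30.98 and 17 (-2.27, SE 0.31, edgeR adjusted p = 2.13e-05). An intergenic peak with Smim23 as its nearest gene (chr11:32972975-32974156) had 104 and 98.9 against 19.9 and 22.2 (-2.27, SE 0.30, edgeR adjusted p = 1.50e-05).

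**Figure D3:**
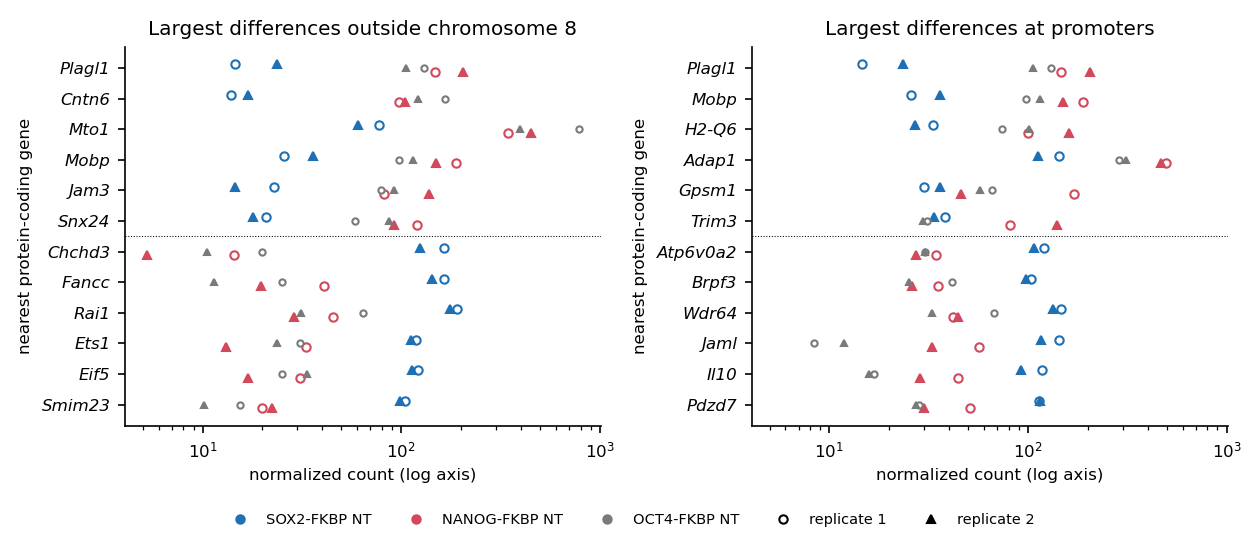
Normalized counts (log axis) of each library at the 6 largest differences in each direction, outside chromosome 8 on the left and at promoters of protein-coding genes on the right, with the dotted line between peaks higher in NANOG-FKBP NT (above) and peaks higher in SOX2-FKBP NT (below). Rows were chosen for no overlap between the SOX2-FKBP NT and NANOG-FKBP NT libraries, as at Plagl1 with 14.6 and 23.6 against 147 and 205. OCT4-FKBP NT is shown in grey.

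Among strong peaks at protein-coding promoters outside chromosome 8, 279 were called higher in NANOG-FKBP NT and 39 higher in SOX2-FKBP NT, of 911 and 463 strong peaks called without overlap at any position. Among all tested peaks of that strength, with chromosome 8 and every transcript type included, 55.1% lay at promoters. Of those called, the shares were lower, at 36.2% (higher in NANOG-FKBP NT) and 12.6% (higher in SOX2-FKBP NT). After Plagl1 and Mobp the largest rise was at H2-Q6, a class I histocompatibility gene, with 33.3 and 26.96 normalized counts in SOX2-FKBP NT and 99.6 and 161 in NANOG-FKBP NT (log2 fold change 2.08, SE 0.31, edgeR adjusted p = 8.92e-05). This gene has close copies in its cluster, so that the placement of its fragments is uncertain. The promoter of Adap1, an ARF GTPase-activating protein gene, had 143 and 112 against 495 and 468 (1.90, SE 0.22, edgeR adjusted p = 2.43e-06). At the promoter of Gpsm1, a G protein signalling gene, the NANOG-FKBP NT libraries disagreed, with 172 and 45.8 against 29.8 and 35.9 (1.76, SE 0.37, edgeR adjusted p = 0.00239), and the call was lost without SOX2-FKBP NT replicate 1 (log2 fold change range 0.48 to 2.39 over all settings) and without NANOG-FKBP NT replicate 1. The promoter of Trim3, a ubiquitin ligase gene, had 38.2 and 33.7 against 80.8 and 140 (1.60, SE 0.30, edgeR adjusted p = 0.000892), and OCT4-FKBP NT had 30.97 and 29.5, at the level of SOX2-FKBP NT. The summits were 1034 bp from the start of Trim3, 929 bp from that of H2-Q6 and 923 bp from that of Gpsm1. At Adap1 the distance was 142 bp.

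The promoter peaks that were higher in SOX2-FKBP NT belong to unlike genes. That of Atp6v0a2, a proton pump subunit gene, had 120.0 and 107 in SOX2-FKBP NT against 34.3 and 27.5 in NANOG-FKBP NT (log2 fold change -1.87, SE 0.30, edgeR adjusted p = 0.000177). That of Brpf3, a bromodomain gene, had 104 and 97.7 against 35.4 and 26.2, and that of Wdr64 147 and 134 against 42.0 and 44.5. Both had a log2 fold change of -1.70 (SE 0.34 for each, edgeR adjusted p = 0.00142 and 0.00163). The promoter of the leukocyte adhesion gene Jaml had 144 and 117 against 56.4 and 32.7 (-1.54), that of the cytokine gene Il10 117 and 92.1 against 44.3 and 28.8 (-1.51), and that of Pdzd7 114 and 115 against 50.9 and 30.1 (-1.48). Their summits lie in introns, except that of Il10, which lies in an exon. A promoter peak is one within 500 bp of an annotated transcript start, and its summit can lie further away. The summits were 1545 bp from the start of Il10, 1181 bp from that of Wdr64 and 652 bp from that of Brpf3. At Atp6v0a2, Jaml and Pdzd7 the distances were 234, 373 and 238 bp. Jaml, Il10 and Pdzd7 lost their call without NANOG-FKBP NT replicate 2, and Jaml and Il10 also without SOX2-FKBP NT replicate 1.

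The same lines were also compared at 2 and 6 h of 500 nM dTAG-13, given to deplete the tagged factor of each line. These libraries are not part of the NT fold changes, but they entered the filter and the shared estimate of the spread, so that they are not an independent set. NANOG-FKBP replicate 2 at these times was shallow, with 1817191 and 3272168 counts, of which 17.56% and 13.18% were mitochondrial, and its part in the values was not tested. A different factor is depleted in each line, so that these fold changes do not measure the untreated difference alone. At Mobp SOX2-FKBP had 10.3 and 9.62 at 2 h, and the log2 fold change was 4.12 against 2.49 at NT. Over peaks with the composite SOX-POU motif the median was 0.02 at NT and 0.75 at 2 h. The part of depletion was not tested. The 10 named peaks higher in NANOG-FKBP NT and the 12 named peaks higher in SOX2-FKBP NT outside chromosome 8 all kept their direction at both times. Of the 5680 peaks called higher in NANOG-FKBP NT, 96.8% had a positive fold change at 2 h and 97.0% at 6 h, with medians of 1.16 and 1.17 on the log2 scale. Of the 6005 peaks called higher in SOX2-FKBP NT, 95.7% had a negative fold change at 2 h and 92.9% at 6 h, with medians of -1.35 and -1.28. For all tested peaks, the share that kept the sign of the NT comparison was 70.2% to 73.7%.

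The position of called peaks depended on their strength. Peaks within 500 bp of an annotated transcript start made up 17.1% of all peaks tested, 21.5% of those higher in NANOG-FKBP NT and 7.61% of those higher in SOX2-FKBP NT. Summits in exons made up 13.8%, 24.6% and 6.81%, and summits in introns 48.2%, 39.3% and 52.6%. The median GC content of the window of 150 bp on each side of the summit was 51.2% for all peaks, 54.8% for peaks higher in NANOG-FKBP NT and 50.2% for peaks higher in SOX2-FKBP NT. Among peaks with a mean count of 100 or more the order was another, with promoters at 55.1% of all, 36.2% of those higher in NANOG-FKBP NT and 12.6% of those higher in SOX2-FKBP NT. For these strong peaks exons made up 27.3%, 21.2% and 9.59%, introns 33.2%, 41.8% and 51.8%, and the median GC content was 57.5%, 52.8% and 51.8%. Sequence that is repeat-masked over most of the window was found in 13%, 15.3% and 10.7% of peaks of any strength, in the same order. For the strong peaks the shares were 6.57%, 9.96% and 5.76%. Of 28442 promoter peaks, 1222 (4.3%) were higher in NANOG-FKBP NT and 457 (1.61%) higher in SOX2-FKBP NT, with a median log2 fold change of 0.20.

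The GC content of a peak moved with the difference between lines. In the quintile of peaks with the highest GC content, 56.5% to 85.4%, 2491 peaks (7.51%) were higher in NANOG-FKBP NT and 404 (1.22%) higher in SOX2-FKBP NT. In the middle quintile the shares were 1.96% and 5.02%. The median level of the highest quintile, relative to SOX2-FKBP NT, was 0.16 in NANOG-FKBP NT replicate 1 and 0.33 in replicate 2. The median log2 fold change of the highest quintile was 0.26, and 0.17 without NANOG-FKBP NT replicate 2. Without SOX2-FKBP NT replicate 1 it was 0.24. With offsets that remove the dependence on GC content in each library, promoter peaks had 719 calls higher in NANOG-FKBP NT and 458 higher in SOX2-FKBP NT, and their median was 0.01.

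Fixed motif strings were counted on both strands in the window of 150 bp on each side of each summit, as a description of the called peaks with no test. The string that differed most was that of ESRRB, CAAGGTCA, an orphan nuclear receptor of the naive network. It was present in 5.29% of all peaks tested, in 12.9% of peaks higher in SOX2-FKBP NT and in 2.08% of peaks higher in NANOG-FKBP NT. Conversely, of 8804 peaks with the string, 775 (8.80%) were higher in SOX2-FKBP NT and 118 (1.34%) higher in NANOG-FKBP NT. Their median log2 fold change was -0.29, against 0.02 for peaks without it, and it was -0.39 at 2 h and -0.30 at 6 h of dTAG-13. Relative to SOX2-FKBP NT the median level was -0.20 in NANOG-FKBP NT replicate 1 and -0.36 in replicate 2. The share called higher in SOX2-FKBP NT was larger with the string than without it in each quintile of GC content, for example 10.9% against 4.62% in the middle one and 4.74% against 1.14% in the highest. Over the 18 alternative settings the string was in 11.8% to 13.7% of peaks higher in SOX2-FKBP NT and in 1.59% to 3.21% of peaks higher in NANOG-FKBP NT.

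The strongest such peaks show the string near the summit, printed in capitals within 81 bp (mm10, plus strand). They were chosen after their values were seen, as the called peaks with the string, outside exons and chromosome 8, with the largest fold changes, leaving out the Chchd3 peak. The Ets1 peak is described above. The peak in an intron of Stambpl1, a deubiquitinase gene (chr19:34213917-34214770), had 98.5 and 110 normalized counts in SOX2-FKBP NT and 29.9 and 13.1 in NANOG-FKBP NT. The peak 8.57 kb from Adcy6, an adenylate cyclase gene (chr15:98585156-98586398), had 109 and 119 against 27.7 and 26.2. The printed stretches are chr9:32933393-32933473, chr19:34214364-34214444 and chr15:98585612-98585692.
Ets1 peak: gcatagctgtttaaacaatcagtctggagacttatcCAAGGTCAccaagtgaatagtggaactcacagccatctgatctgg
Stambpl1 peak: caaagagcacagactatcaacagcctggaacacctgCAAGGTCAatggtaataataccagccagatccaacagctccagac
Adcy6 peak: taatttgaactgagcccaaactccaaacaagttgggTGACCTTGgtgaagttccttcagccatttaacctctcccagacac

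The SOX string CATTGT was in 14.5% of all peaks tested, in 17.2% of peaks higher in NANOG-FKBP NT and in 13.7% of peaks higher in SOX2-FKBP NT. The share among peaks higher in NANOG-FKBP NT was 24.6% without NANOG-FKBP NT replicate 2 and 13.8% without replicate 1, so that it depended on the library. Among peaks whose mean reached 100 normalized counts it was 20.4%, against 12.1% of all peaks of that strength. In the lowest quintile of GC content 4.50% of peaks with the string and 2.22% of peaks without it were higher in NANOG-FKBP NT, and in the highest quintile 7.44% and 7.52%. Peaks with the string and the largest rises were chosen after their values were seen, under the same limits as for the ESRRB string. They were at Jam3 (described above), 10.98 kb from the lens crystallin gene Crygs (chr16:22799963-22801184) and in an intron of 5430403G16Rik (chr5:109682476-109683533). The Crygs peak had 33.3 and 37.1 normalized counts in SOX2-FKBP NT and 166 and 179 in NANOG-FKBP NT, and the 5430403G16Rik peak 17.4 and 28.1 against 135 and 71.9. The stretches shown, with the string in capitals on either strand, are chr9:27165093-27165173, chr16:22800504-22800584 and chr5:109683089-109683169.
Jam3 peak: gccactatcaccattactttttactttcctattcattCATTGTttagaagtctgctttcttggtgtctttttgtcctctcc
Crygs peak: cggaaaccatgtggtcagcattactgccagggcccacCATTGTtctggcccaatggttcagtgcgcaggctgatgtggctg
5430403G16Rik peak: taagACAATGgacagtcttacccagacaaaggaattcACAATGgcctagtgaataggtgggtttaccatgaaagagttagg

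Other motifs split between the directions. The POU octamer ATGCAAAT was in 2.67% of all peaks, 4.21% of those higher in SOX2-FKBP NT and 1.55% of those higher in NANOG-FKBP NT. The OTX string TAATCC was in 8.72%, 11.1% and 5.81%, and the KLF string GGGNGTGG in 17.5%, 19.8% and 13.3%. The TFAP2 string GCCNNNGGC, which is made of G and C at its fixed letters, was in 12.2%, 13.6% and 17.7%, but among peaks with a mean count of 100 or more in 20.9%, 18.6% and 16.6%. The composite SOX-POU motif was rare, at 0.25%, 0.25% and 0.42%. CTCF motifs, which mark boundaries of chromatin domains, were in 3.69% of all peaks but in only 0.53% and 1.13% of the called peaks, and of 6135 peaks with the motif 32 (0.522%) were higher in SOX2-FKBP NT and 64 (1.04%) higher in NANOG-FKBP NT. Among peaks with a mean count of 100 or more, CTCF motifs were in 1.97% of all, 0.427% of those higher in SOX2-FKBP NT and 1.87% of those higher in NANOG-FKBP NT. The strings overlap in part, and a match does not show that a factor binds.

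**Figure D4:**
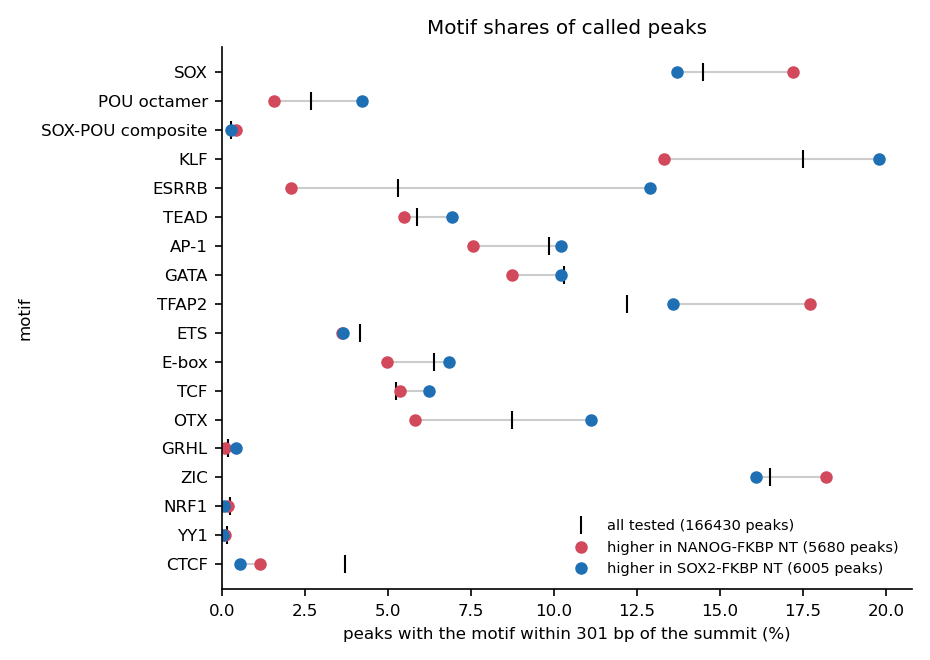
Percentage of peaks with each motif within 150 bp of the summit, for peaks higher in NANOG-FKBP NT (red), peaks higher in SOX2-FKBP NT (blue) and all peaks tested (black bar). The ESRRB string has the widest gap, 2.08% against 12.9%, around 5.29% of all peaks.

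Sites that need OCT4 were compared between the untreated lines. Peaks lower after 2 h of OCT4 depletion in OCT4-FKBP cells, which enter neither group, numbered 8480. Of these, 742 (8.75%) were higher in NANOG-FKBP NT and 209 (2.46%) higher in SOX2-FKBP NT, against 3.13% and 3.67% of the other 157950 peaks. Their median log2 fold change was 0.16, against 0.00 for the others, and their median level was 0.14 in NANOG-FKBP NT replicate 1 and 0.13 in replicate 2. The median depended on the scaling and filter, with 0.05 by total counts, 0.00 with 10 counts in every library and 0.27 with GC content offsets. These sites were stronger than the others, with a median of 46.2 normalized counts against 20.2. Only 5.33% of them were promoters, against 17.7%. Without SOX2-FKBP NT replicate 1, 99 of them were called higher in NANOG-FKBP NT, and the other fits with a library left out gave 287 to 424.

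Promoters of imprinted genes were the gene list with the most calls, and also the longest list, with 24 genes. By share the Wnt response list was higher, with 2 of 7 promoters called. Imprinted genes carry DNA methylation on 1 parental chromosome, and their list was chosen with earlier results of these data known. Of 21 promoter peaks, 5 were higher in NANOG-FKBP NT and 0 higher in SOX2-FKBP NT, against 4.3% and 1.61% of all promoter peaks, and the list median was 0.51 on the log2 scale. Besides Plagl1 they were Mest, Grb10, the promoter that Peg10 and Sgce share, and Airn. Mest, a maternally imprinted hydrolase gene, had 87.4 and 89.9 normalized counts in SOX2-FKBP NT and 145 and 239 in NANOG-FKBP NT (log2 fold change 1.11, SE 0.24, edgeR adjusted p = 0.00311). Grb10, a growth inhibitor gene, had 54.1 and 44.9 against 105 and 131 (1.23, SE 0.30, edgeR adjusted p = 0.00855). The peak of Peg10 and Sgce had 109 and 106 against 172 and 234 (0.91, SE 0.25, edgeR adjusted p = 0.0190). Airn, the antisense transcript at Igf2r, had 86.0 and 80.9 against 127 and 169 (0.82, SE 0.25, edgeR adjusted p = 0.0406). H19 had 2.78 and 6.74 against 9.96 and 11.8 and was not called (edgeR adjusted p = 0.184). The 5 promoters were higher in both NANOG-FKBP NT libraries, with replicate 2 the higher at each. At 2 h of dTAG-13 the log2 fold changes were 3.24 at Plagl1, 1.22 at Mest and 1.32 at Grb10 but 0.43 at Peg10 and 0.27 at Airn. Plagl1 and Mest kept their call with GC content offsets and the other 3 lost it. Without NANOG-FKBP NT replicate 2 Plagl1 alone was called.

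**Figure D5:**
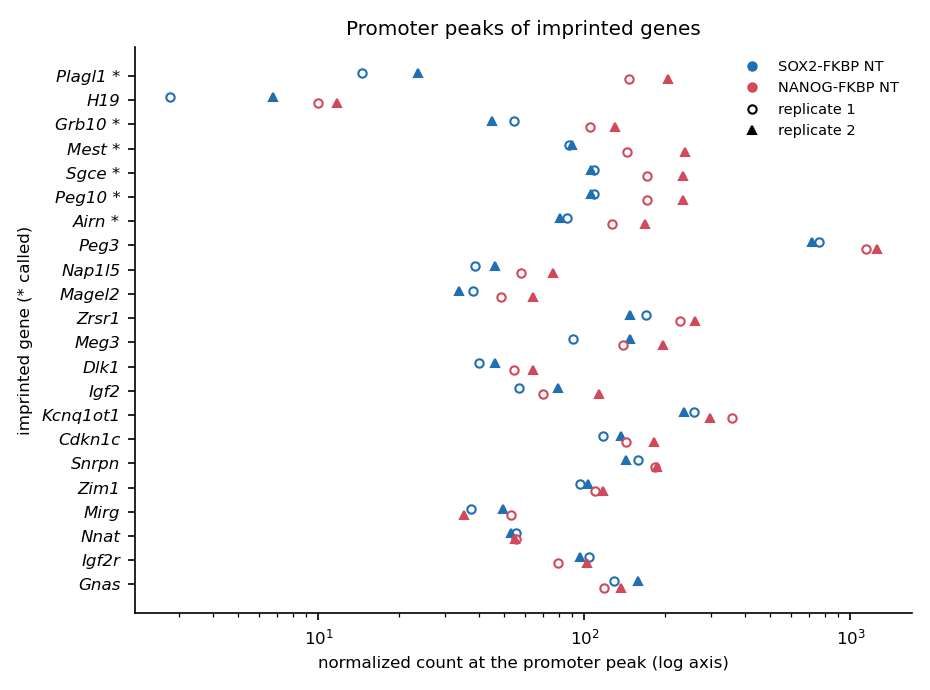
Normalized counts (log axis) at the promoter peak of each imprinted gene in the 4 NT libraries, ordered by log2 fold change, with a star for called promoters. Plagl1, with 14.6 and 23.6 in SOX2-FKBP NT against 147 and 205 in NANOG-FKBP NT, is set apart by size, and Igf2r and Gnas show no gain.

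Pluripotency genes were not called at their promoters. None of the 18 naive and general pluripotency promoters passed in either direction, with a median log2 fold change of 0.17. The largest differences were at Klf2 (237 and 252 against 284 and 407), Tcl1 (137 and 160 against 137 and 71.9), Utf1 (76.3 and 99.97 against 85.2 and 157) and Tet2 (184 and 164 against 205 and 245). Klf2 lies on chromosome 8, and its log2 fold change of 0.50 stands beside a chromosome median of 0.33. In the surroundings of the 18 genes, each gene and 20 kb on each side, 8 of 298 peaks were higher in NANOG-FKBP NT and 6 higher in SOX2-FKBP NT, against 3.41% and 3.61% of all peaks. None of the 9 formative and primed promoters was called either. Their median was 0.50, and the level was 0.04 in NANOG-FKBP NT replicate 1 and 0.82 in replicate 2, so that the median came from replicate 2. Sox3, for example, had 72.9 and 65.2 in SOX2-FKBP NT and 77.5 and 167 in NANOG-FKBP NT (edgeR adjusted p = 0.0945), and Otx2 63.8 and 71.9 against 56.4 and 141 (edgeR adjusted p = 0.351). No promoter was called in 3 lists of signalling response genes, 9 FGF-ERK promoters (median 0.26), 8 LIF-STAT3 promoters (median 0.18) and 7 Nodal pathway promoters (median 0.05), whereas 2 of 7 Wnt response promoters were called (median 0.65).

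Promoters of developmental genes showed a few calls, all higher in NANOG-FKBP NT, where 4.3% of all promoter peaks were called in that direction and 1.61% in the other. Of 14 primitive endoderm promoters 2 were called, among them Col4a1. This gene, coding for a basement membrane collagen on chromosome 8, had 101 and 110 normalized counts in SOX2-FKBP NT and 143 and 272 in NANOG-FKBP NT (log2 fold change 0.97, SE 0.27, edgeR adjusted p = 0.0218), and its call was lost when chromosome levels were taken out and with GC content offsets. Of 11 trophectoderm promoters 1 was called, that of the transcription factor Hand1, with 26.4 and 33.7 against 46.5 and 71.9. Of 12 germ layer promoters 1 was called, that of the mesoderm factor T, with 53.4 and 50.6 against 95.2 and 145 (1.20, SE 0.28, edgeR adjusted p = 0.00612). T is also a Wnt response gene, and of 7 promoters of that list T and Cdx1 were called. Cdx1, a caudal homeobox factor, had 237 and 185 against 527 and 356 (1.06, SE 0.24, edgeR adjusted p = 0.00469), where replicate 1 was the higher.

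The remaining lists were small or quiet. Duxf3, of the 2-cell stage Dux family, was the only 1 of 9 genes of the 2-cell-like list with a promoter peak. It had 73.6 and 74.1 against 113 and 208 (log2 fold change 1.11, SE 0.26, edgeR adjusted p = 0.00617), and since the gene lies in a repeat array its fragments may come from several copies. Of 12 germline promoters 1 was called, that of the meiotic gene Sycp1, with 14.6 and 15.7 against 35.4 and 45.8 (1.42, SE 0.43, edgeR adjusted p = 0.0373). None of 10 housekeeping promoters was called, with a median of 0.20, the same as over all promoter peaks. None of the 3 Y-linked promoter peaks was called (median -0.49), and that of Hprt had 79.1 and 96.6 against 87.4 and 110. Over all lists 12 different promoter peaks were higher in NANOG-FKBP NT and 0 higher in SOX2-FKBP NT. Without SOX2-FKBP NT replicate 2 the calls of Col4a1, Hand1, T, Cdx1, Duxf3 and Sycp1 were lost, and without NANOG-FKBP NT replicate 2 all of these but Cdx1. With GC content offsets 5 remained, Plagl1, Mest, T, Duxf3 and Cdx1, and Lefty2, a Nodal inhibitor gene, was called higher in SOX2-FKBP NT.

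The tagged genes were looked at with 5 kb on each side. None of the 4 peaks at Sox2 was called, and its promoter had 229 and 291 normalized counts in SOX2-FKBP NT and 255 and 293 in NANOG-FKBP NT. The peak downstream of Sox2 (chr3:34653366-34654148) had 65.2 and 95.5 against 113 and 127, without overlap but not called (log2 fold change 0.60, SE 0.24, edgeR adjusted p = 0.133). None of the 4 peaks at Pou5f1, the OCT4 gene that neither line has tagged, was called. Its promoter peak, with the summit at -1952 bp from the gene start, had 583 and 625 against 775 and 670. At Nanog the promoter had 208 and 191 in SOX2-FKBP NT and 183 and 149.1 in NANOG-FKBP NT and was not called (edgeR adjusted p = 0.544). Of 8 peaks there 1 was called, an intergenic peak with its summit 1333 bp past the annotated end of Nanog (chr6:122715040-122716455). It had 122.8 and 122.4 in SOX2-FKBP NT against 32.1 and 22.2 in NANOG-FKBP NT, a log2 fold change of -2.16 (SE 0.42, edgeR adjusted p = 0.00127), and the call held under each alternative setting. OCT4-FKBP NT had 234 and 131 at this peak. The difference was not seen in treated cells, where the log2 fold change was 0.07 at 2 h and 0.04 at 6 h. SOX2-FKBP libraries at those times had 69.5 to 90.02 normalized counts, and NANOG-FKBP libraries 46.9 to 159.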

How the data were processed

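The authors aligned paired-end ATACseq reads to mm10 with BWA 0.7.17-r1188, filtered alignments on mapping quality with SAMtools 1.10 and removed duplicates with Picard 2.12.0 (versions from the submitters' processing notes). MACS2 peaks came from merged libraries. The deposited values are raw counts of fragments overlapping each peak. Of the deposited peak list only positions and summits were used.

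The test ran on peaks passing 10 counts in over 6 of the 27 modelled libraries, with edgeR 4.0.16 under R 4.3.3 (TMM, quasi-likelihood, Benjamini-Hochberg), 1 mean per line and time without a block. The SE is the fold change divided by the square root of F. DESeq2 1.42.0, the tool of the study, was an alternative. The test was checked on simulated data. Positions and sequences are mm10, read with pysam 0.24.0 in Python 3.11.15, and gene models GENCODE vM21. Total counts of the 4 libraries, 6035633 to 10531404, set their precision. Fragments are not independent molecules beyond duplicate removal.

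Named peaks have an adjusted p under 0.05, no overlap between lines, the higher line at 100 or more normalized counts on average, the largest fold changes (6 in each direction outside chromosomes 8 and Y, 6 at protein-coding promoters, 3 on chromosome 8 after subtracting its median) and a spacing of 1 Mb. In gene lists up to 4 promoters with the largest differences are named. Lists were tagged factors, naive and formative pluripotency, primitive endoderm, trophectoderm, germ layers, 2-cell-like state, imprinted, germline, FGF-ERK, Nodal, Wnt, LIF-STAT3, Y-linked and housekeeping genes, and Hprt. The comparison, rules and lists were chosen with earlier results of these data known. Of 45 samples, 14 without a column of counts were not analysed here. Some items named by these rules are not reported here.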

Additional observations from a re-analysis of the deposited data

How the results depend on the processing

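Counts of calls, and which direction had more, changed with the setting: 48.6% of calls were higher in NANOG-FKBP NT as reported, 52.0% under DESeq2, 54.4% with loess offsets, 54.6% with GC content offsets and 59.9% without NANOG-FKBP NT replicate 2. Under DESeq2, 3301 peaks were higher in NANOG-FKBP NT and 3048 higher in SOX2-FKBP NT (outside chromosome 8, 2819 and 2978; promoters, 777 and 261), with 29041 adjusted p-values NA. With total counts 3227 were higher in NANOG-FKBP NT (2768 outside chromosome 8; 623 promoters), which made 33.8% of calls higher in NANOG-FKBP NT and moved the median of all peaks from 0.01 to -0.10. A filter of 10 counts in every library, which tests fewer peaks, gave 527 and 673 calls (436 and 657; promoters 178 and 112), of which 527 and 385 were also called without it. GC content offsets gave 719 promoters higher in NANOG-FKBP NT. For the other moves below the cause was not tested.

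Leaving out 1 library gave 893 to 4414 and 965 to 4357 calls in the 2 directions (781 to 3545 and 930 to 4283 outside chromosome 8; promoters 155 to 1251 and 81 to 321), where the lone library of a line is assumed to vary like the other groups. The chromosome 8 median was 0.114 to 0.473 in these fits, and 0.047 with chromosome level offsets. Called list promoters numbered 5 with GC content offsets, 4 with the filter, 22 in the 4 NT libraries alone and 2 to 20 with a library left out. With GC content offsets 1 was higher in SOX2-FKBP NT, and 1 with the replicate block and these offsets. Imprinted promoters numbered 3 with loess offsets, 2 with GC content offsets, 2 with the filter and 1 to 5 with a library left out.

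Sites lost after OCT4 depletion, promoter counts and motif shares under count settings were alternatives chosen after seeing the data. Of those sites 439 were higher in NANOG-FKBP NT with DESeq2, 470 with total counts, 1206 with the replicate block and GC content offsets, 62 with the filter and 99 to 424 with a library left out. Their median was 0.046 with total counts, 0.273 with GC content offsets, 0.271 with the block added, 0.004 with the filter and 0.111 to 0.174 with a library left out. Windows of 5 Mb gave 1 shifted window. Promoters within 1000 bp were 24.7% and 10.0% of calls. The ESRRB string was in 19.9% (whole peak) and 16.7% (mean of 100) of peaks higher in SOX2-FKBP NT, and in 6.32% (whole peak), 3.21% (GC content offsets), 2.7% (without NANOG-FKBP NT replicate 2) and 3.74% (mean of 100) of peaks higher in NANOG-FKBP NT. The SOX string was in 36.4%, 20.4%, 24.6% and 20.4% of the latter under the same settings, and in 30.9% (whole peak), 11.9% (GC content offsets) and 12.1% (DESeq2) of the former.

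Same-numbered replicates of the lines did not deviate together (correlation of deviations 0.015), and the reported test did not pair them. The correlation cannot show whether same-numbered libraries were made together. With the replicate block 7363 and 7546 peaks were called, and 7130 and 6046 with GC content offsets added. The peaks named by the rule for largest differences and the called list promoters kept their sign in the settings that tested them. Under DESeq2, 29041 peaks had no adjusted p, and how far depth limits weak peaks was not tested.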

Other observations

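In windows of 2 Mb with at least 10 tested peaks, the median log2 fold change was 0.5 or more in size, with the same sign in both NANOG-FKBP NT replicates, in 19 of 1266 windows. Of these, 3 lay on chromosome 8, 7 elsewhere were higher in NANOG-FKBP NT and 9 elsewhere higher in SOX2-FKBP NT. The window with the most peaks outside chromosome 8, chr3:134000001-136000000 with the genes Nfkb1, Manba and Slc9b2, had a median of 0.61 over 99 peaks. Its level was 0.52 in NANOG-FKBP NT replicate 1 and 0.66 in replicate 2, and 22 of its peaks were called higher in NANOG-FKBP NT and 0 higher in SOX2-FKBP NT. The median was 0.47 at 2 h and 0.50 at 6 h of dTAG-13. A window of chromosome 4 with Tyrp1 and Mpdz, chr4:80000001-82000000, had 0.59 over 29 peaks and 1.03 at 6 h. Other windows changed sign in treated cells, among them the window of chromosome 5 with Adgrl3, at -0.69 in untreated cells and 0.27 at 6 h. No test was made of these windows.

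Peak strength moved with the difference as well. Among the quintile of peaks with the highest mean counts, 4.4% were higher in NANOG-FKBP NT and 2.29% higher in SOX2-FKBP NT, with a median log2 fold change of 0.17. In the next quintile the shares were 4.54% and 5.55%, with a median of -0.01.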
